A study of Rattus norvegicus with 8 samples.

Results

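Rab genes encode small GTPases of vesicle traffic, and 54 of them were measured in rat kidney after colistin or saline. They were found by matching the RefSeq accessions of the array's probes to rat gene symbols and keeping symbols made of Rab, a number and at most one letter from a to d. These 54 genes, carried by 66 probes, are among 15637 genes that the array's accessions named. All 8 samples were total RNA labelled as kidney from male rats (Rattus norvegicus) aged 10 weeks, taken at day 28. The 4 controls had received saline and the other 4 had received 30 mg/kg colistin, a polymyxin antibiotic that can injure the renal tubule. The tissue label is kidney while the title of the series speaks of injured tubules, and how tissue was taken is not given in the sources used here. The labels give neither strain nor route, and no label ties a sample to an animal of its own. The p-values therefore rest on the variation among these 8 samples, which may be technical in part.

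A Rab protein cycles between a GDP-bound form held in the cytosol and a GTP-bound form on a membrane, where it recruits effectors that move, tether or fuse vesicles. Exchange factors switch it on, GTPase-activating proteins switch it off, and a lipid anchor added at its end holds it to the membrane. Each Rab marks particular compartments. In the proximal tubule, proteins and polymyxins captured by the receptor megalin pass through early endosomes marked by Rab5, from which Rab4 and Rab11 serve return to the surface and Rab7 the way to lysosomes.

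The saline arrays were dimmer than the colistin arrays, with a 75th percentile of processed signal of 156 to 197 against 271 to 317. The share of spots well above background was 69.3% to 75.8% on saline arrays and 79.1% to 83.9% on colistin arrays. Levels below are log2 processed signals from which that percentile, also as log2, was subtracted array by array, so that 0 is the level of the percentile. They are comparable between arrays for one gene but not between genes. Differences are colistin minus saline on the same log2 scale. A gene was tested when the scanner software called its probe well above background on 3 or more of the 4 saline or the 4 colistin arrays. This kept 48 of the 54 Rab genes, of which 40 met that condition in each group and 34 were well above background on all 8 arrays. Of the remaining 8, 7 were kept through the colistin group alone and 1, Rab25, through the saline group alone. The 6 genes that were too dim to test were Rab3a, Rab3b, Rab3c, Rab9b, Rab27a and Rab38. With 4 arrays a group, precision is limited by their number.

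None of the 48 Rab genes passed the test (0 of 48, limma with Benjamini-Hochberg adjustment over 12411 genes), beside 250 of 12411 genes or 2.01% of all genes tested (1.47% higher and 0.548% lower). The smallest adjusted p among them was 0.089, for Rab19. At an unadjusted p under 0.05 there were 5 Rab genes (Rab13, Rab17, Rab19, Rab23 and Rab43), or 10.4% of the 48. All 5 were higher after colistin. Of all 12411 genes 22.7% were under that p, 1301 higher and 1515 lower. The share that was higher was thus much the same in the Rab genes as in all genes. Of the 5, Rab19 and Rab23 were kept through the colistin group alone. The median log2 fold change of the 48 was 0.48, with 32 positive and 16 negative values (25 and 15 among the 40 detected in both groups), while the median of all genes tested was -0.14 and 45.1% of them were positive. Among the 34 Rab genes well above background on all 8 arrays the median was 0.15, and that of all genes held to the same filter was -0.24.

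The intervals were wide. The 95% interval of a Rab gene's log2 fold change had a median half-width of 1.40, against 1.28 for all genes. Its upper end was above 2 in 20 of 48, and its lower end was below -2 in genes such as Rab5a (-3.72) and Rab25 (-6.10). The share of all genes was not counted for either end. In 3 of 48, Rab1a, Rab1b and Rab34, the whole interval lay between -1 and 1, which was so in 5.16% of all genes. An absolute log2 fold change over 1 was found in 18 of 48, beside 34% of all genes, and 7 of these 18 met the condition on background in one group only. The saline arrays spread more than the colistin arrays, with a median SD of 0.92 against 0.60 over the Rab genes and 0.84 against 0.59 over all genes. The larger SD was in saline in 34 of 48 Rab genes, beside 67.2% of all genes. Saline array 4 alone held the lowest saline value of 15 Rab genes and the highest of 17, while over all genes it was lowest in 28.6% and highest in 31.8%. Colistin array 2 held the lowest colistin value of 21 Rab genes (43.8%), against 34.6% of all genes. On colistin arrays 1 to 4 the median difference of the Rab genes from the saline mean was 0.23, 0.15, 0.49 and 0.42, against -0.17, -0.28, -0.07 and -0.08 over all genes.

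**Figure D1:**
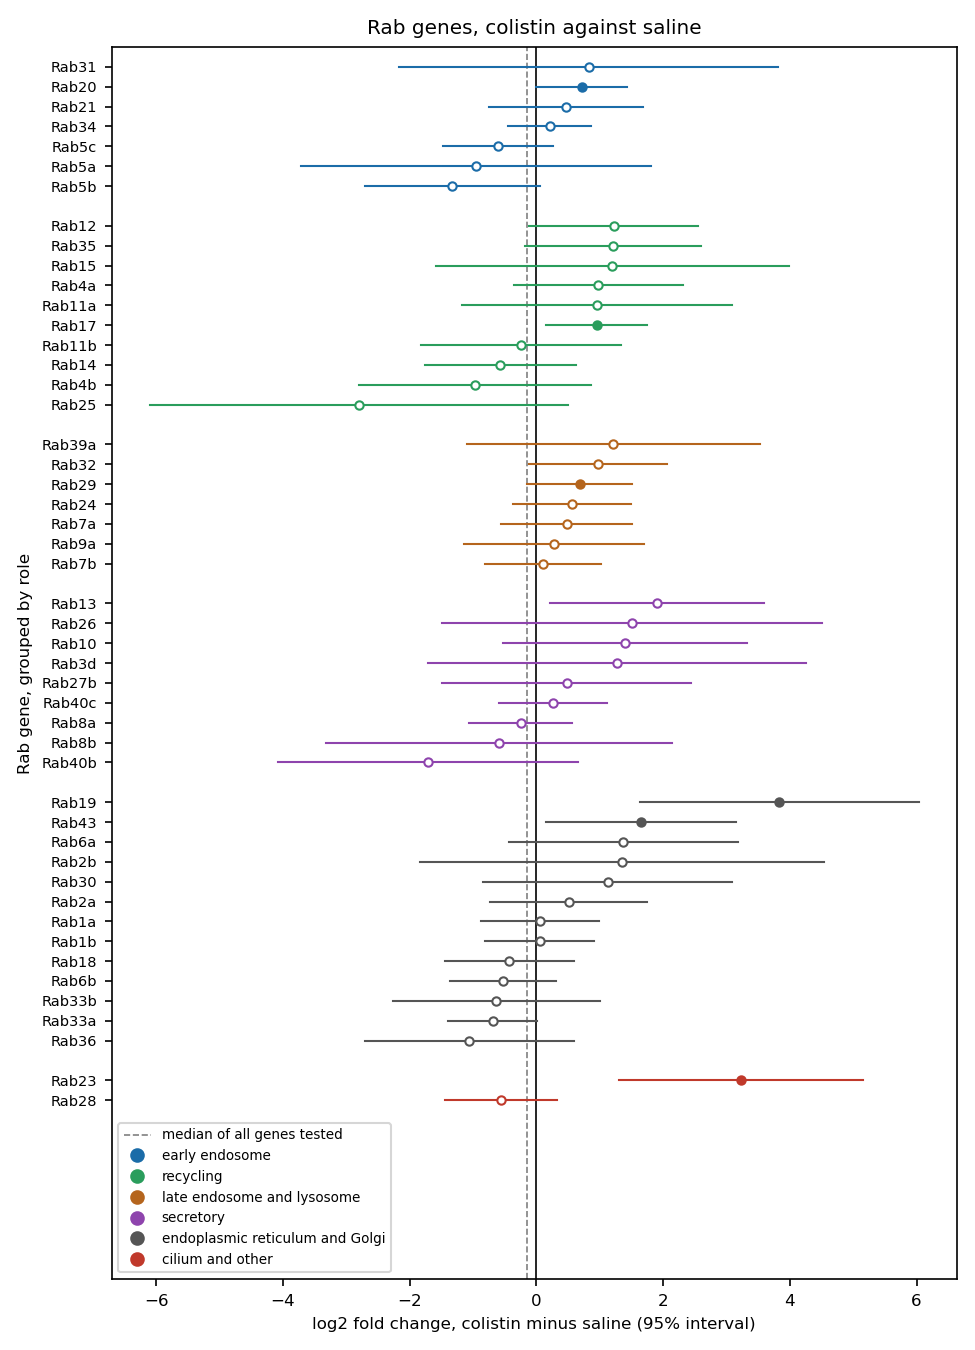
Log2 fold change of the 48 tested Rab genes, colistin minus saline (x axis), with bars for the 95% interval, grouped by role on the y axis. Filled points are the 6 genes whose colistin arrays all lay above the saline arrays. The fitted values of Rab19 and Rab23 stand at the right and that of Rab25 at the left. All saline arrays lay at background in Rab19, saline arrays 1 and 4 in Rab23, and some arrays of both groups in Rab25. The fitted sizes of these 3 genes are therefore uncertain.

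The 4 colistin values lay above all 4 saline values in 6 Rab genes (Rab17, Rab19, Rab20, Rab23, Rab29 and Rab43), or 12.5% of the 48, beside 6.89% of all genes. They lay below in 0 Rab genes, beside 11.7% of all genes. Rab19 and Rab23 met the condition on background through the colistin group alone, where they are high. The 12.5% counts both and is no support for a difference. Each of the 6 genes is described with its group.

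Early endosome. All 7 Rab genes of the early endosome on the array were tested, with a median of 0.21, 4 positive and 3 negative values and 0 that passed. Rab5 is the GTPase of early endosome fusion, and the estimates of its 3 isoform genes were all negative without passing the test. Rab5a measured -3.20, -0.99, 0.84 and 2.66 on saline arrays 1 to 4 and 0.08, -2.60, -0.96 and -1.05 on colistin arrays 1 to 4. The saline values alone spanned the whole colistin range, and the difference was -0.96 ± 1.20 (log2 fold change ± SE, n = 4 per group; adjusted p = 0.65). Its other probe gave 0.03 and the estimate was -0.01295 without saline array 4, so the sign of Rab5a is not settled. Rab5b measured 3.51, 2.65, 3.55 and 3.66 on the saline arrays and 2.78, 0.84, 3.27 and 1.17 on the colistin arrays. Colistin arrays 2 and 4 lay below every saline array while arrays 1 and 3 lay within the saline range. The difference was -1.33 ± 0.60 (adjusted p = 0.231), with -1.44 from a second probe that was also well above background on all 8 arrays. Within slides 1, 2 and 3 it was -2.75, 0.62 and -1.58, so its sign was not the same on each slide. Rab5c measured 2.50, 2.44, 1.31 and 2.57 after saline and 1.26, 1.93, 1.75 and 1.44 after colistin, a difference of -0.61 ± 0.38 (adjusted p = 0.354). Saline array 3 was low and overlapped the colistin arrays, which lay below the remaining 3.

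Rab20, a Rab of endosome and phagosome maturation, was the early endosome gene with separate groups. It measured 3.44, 3.93, 3.81 and 4.21 on the saline arrays and 4.49, 5.02, 4.32 and 4.41 on the colistin arrays. The lowest colistin array was just above the highest saline array, and the difference of 0.71 ± 0.31 did not pass (adjusted p = 0.221). Its second, dimmer probe gave 1.26 with overlapping groups. Rab21 and Rab34, of integrin traffic and of macropinosomes, gave 0.47 and 0.21. Rab31, of traffic from the Golgi to endosomes, gave 0.83 with one saline array, the fourth, not well above background.

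Recycling. The 10 recycling genes, all tested, had a median of 0.95, with 6 positive and 4 negative values and 0 that passed. Rab17 is an epithelial Rab of apical recycling and transcytosis. It measured -1.29, -1.82, -1.46 and -1.95 on the saline arrays and -0.47, -0.12, -0.96 and -1.18 on the colistin arrays. Every colistin array was above every saline array, and the groups were tight, with SDs of 0.30 and 0.48. The difference of 0.95 ± 0.34 had a 95% interval of 0.16 to 1.74 and did not pass (adjusted p = 0.172). Within slides 1, 2 and 3 it was 1.5019, 0.86 and 0.64, where a positive sign already follows from the separate groups. It was 0.51 with limma's normexp background correction. Rab4a, of fast recycling from early endosomes, measured 0.65, 0.63, 2.81 and 2.29 after saline and 2.92, 2.44, 1.93 and 3.0005 after colistin, a difference of 0.98 ± 0.58 (adjusted p = 0.335). Saline arrays 1 and 2 were low and saline arrays 3 and 4 lay among the colistin arrays. Its relative Rab4b gave -0.97, with saline array 2 high at -0.16 and the other saline arrays in or near the colistin range.

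Rab25 is a relative of Rab11 found in epithelia, where it serves the apical recycling endosome. It measured -2.03, -2.40, -2.56 and -7.13 on the saline arrays and -8.17, -8.21, -3.62 and -5.31 on the colistin arrays. Saline arrays 1 to 3 were above all colistin arrays, but saline array 4 was as low as the colistin arrays. It was well above background on saline arrays 1 to 3 and colistin arrays 3 and 4 and on no other, so its values on the other 3 arrays lie at background and the size of the difference is uncertain. The difference was -2.80 ± 1.44 (95% interval -6.10 to 0.50, adjusted p = 0.277), and it was negative on each slide. Rab11a, of the slow recycling endosome, measured -3.82, -2.44, -1.10 and 0.23 after saline and -1.34, -1.81, -0.98 and 0.82 after colistin, a difference of 0.96 ± 0.93 (adjusted p = 0.551), and 3 of 4 colistin arrays lay inside the saline range. With 1 array left out the Rab11a estimate ran from 0.28 (without saline array 1) to 1.63 (without saline array 4). Rab11b gave -0.24. Rab12, of transferrin receptor turnover, and Rab35, of fast recycling and cytokinesis, gave 1.22 ± 0.58 and 1.20 ± 0.60 with overlapping groups (adjusted p = 0.25 and 0.271). Rab14, of traffic between the Golgi and endosomes, gave -0.57 ± 0.52, and Rab15, of endosomal recycling, gave 1.20 ± 1.21 with saline array 1 not well above background.

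**Figure D2:**
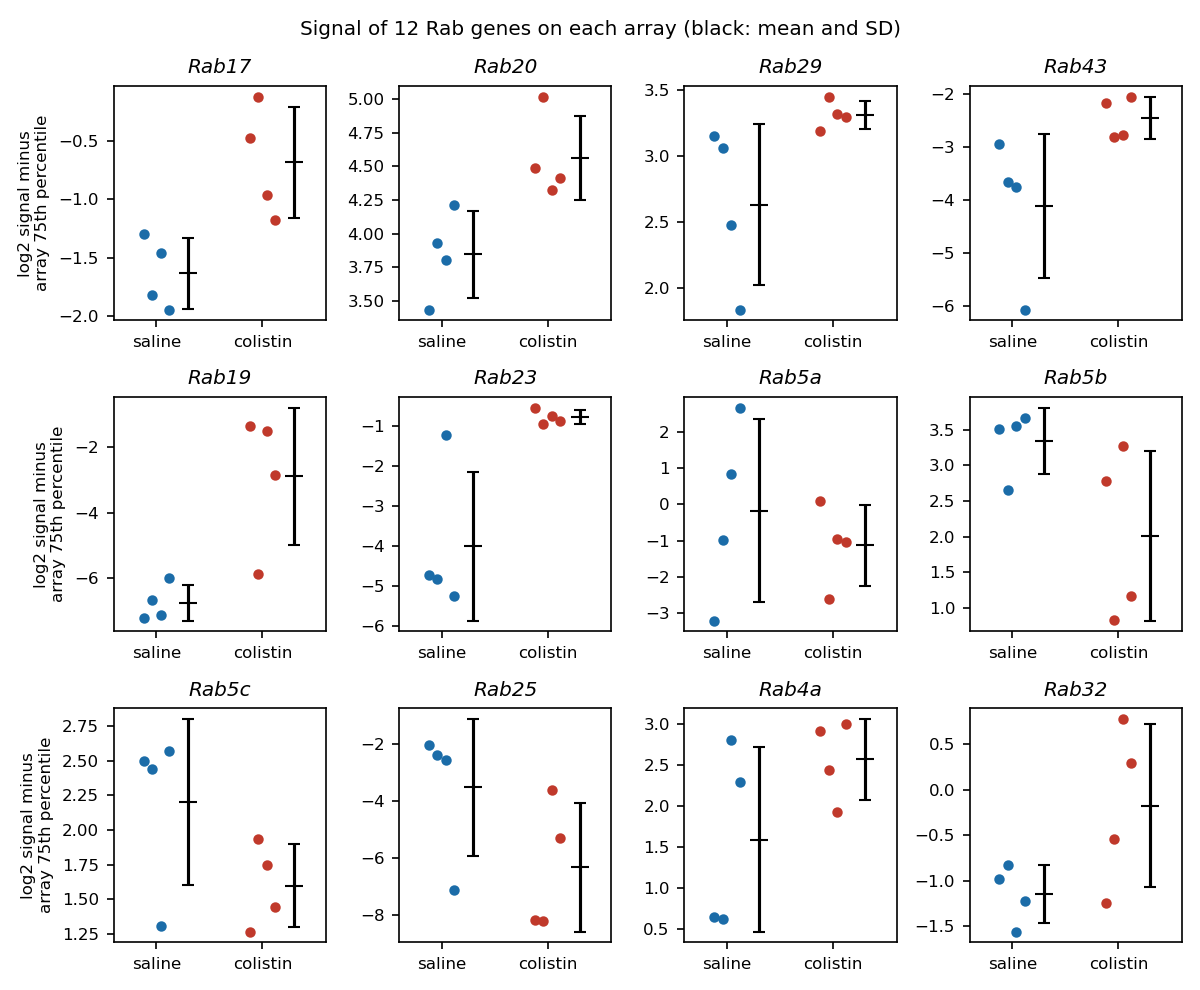
Signal of 12 Rab genes on each array (y axis, log2 processed signal relative to the 75th percentile of the array; each panel has its own range), with 4 saline arrays in blue and 4 colistin arrays in red, and the mean and SD in black. Rab17, Rab20, Rab29, Rab43, Rab19 and Rab23 have separate groups; in Rab5a the saline arrays run from -3.20 to 2.66, across all colistin arrays.

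The promoters of Rab20, Rab17, Rab25 and Rab43 are shown for an early endosome gene, an epithelial gene and a Golgi gene whose groups did not overlap and for the recycling gene with the most negative estimate. Each is the RefSeq window from 250 bases before to 50 after the annotated gene start (assembly GRCr8), 5′ to 3′ on the gene's strand: chr16:84721177-84721476 (plus) for Rab20, chr9:99013983-99014282 (minus) for Rab17, chr2:176304172-176304471 (minus) for Rab25 and chr4:121826462-121826761 (minus) for Rab43. Capitals mark matches on either strand to the GC box GGGCGG, the E-box CACGTG, the cyclic AMP response element TGACGTCA, the AP-1 site TGACTCA, the TATA box TATAAA or the CCAAT box CCAAT. None of these motifs contains another.
Rab20: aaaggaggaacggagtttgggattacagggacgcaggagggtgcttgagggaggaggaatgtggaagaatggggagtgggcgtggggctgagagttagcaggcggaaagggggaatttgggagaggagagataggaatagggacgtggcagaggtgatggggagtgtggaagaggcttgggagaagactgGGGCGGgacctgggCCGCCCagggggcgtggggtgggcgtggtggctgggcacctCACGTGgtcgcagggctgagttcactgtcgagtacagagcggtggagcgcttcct
Rab17: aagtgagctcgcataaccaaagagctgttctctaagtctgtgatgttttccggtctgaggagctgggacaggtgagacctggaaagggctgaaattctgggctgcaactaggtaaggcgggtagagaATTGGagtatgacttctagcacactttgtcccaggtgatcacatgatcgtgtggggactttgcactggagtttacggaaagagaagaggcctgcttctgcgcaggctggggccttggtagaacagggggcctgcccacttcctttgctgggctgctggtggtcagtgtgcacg
Rab25: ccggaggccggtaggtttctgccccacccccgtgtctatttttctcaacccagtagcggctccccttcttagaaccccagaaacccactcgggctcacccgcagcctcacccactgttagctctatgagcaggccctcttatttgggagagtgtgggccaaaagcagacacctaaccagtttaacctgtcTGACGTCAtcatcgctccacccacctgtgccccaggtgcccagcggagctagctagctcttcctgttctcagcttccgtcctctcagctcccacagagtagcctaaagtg
Rab43: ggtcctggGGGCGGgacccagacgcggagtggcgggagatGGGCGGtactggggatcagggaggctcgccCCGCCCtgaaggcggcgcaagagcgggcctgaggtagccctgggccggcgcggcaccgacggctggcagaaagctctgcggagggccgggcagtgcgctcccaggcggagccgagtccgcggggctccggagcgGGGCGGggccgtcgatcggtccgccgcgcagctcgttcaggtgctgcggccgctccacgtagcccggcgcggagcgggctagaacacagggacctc

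A promoter was found for 45 of the 54 Rab genes and for 10139 genes tested. The GC box was in 36 of 45 Rab promoters (80.0%) and in 55.1% of promoters of tested genes, and the median GC content was 63.7% against 59.3%. The TATA box letters were in 0 of 45, against 9.32% of promoters of tested genes. The E-box was in 8.89% of Rab promoters against 8.8%, the AP-1 site in 8.89% against 3.78%, the cyclic AMP response element in 2.22% against 2.84% and the CCAAT box in 37.8% against 37.5%. The E-box was in the promoters of Rab5a, Rab20, Rab21 and Rab31, and the cyclic AMP response element in that of Rab25. These are matches of letters in a window of 300 bases and say nothing of binding.

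Late endosome and lysosome. Of 9 genes on the array 7 were tested, and all 7 had a positive log2 fold change, with a median of 0.56 and 0 that passed. With normexp 5 were positive and 2 negative (Rab7b and Rab39a). Rab7a, which drives fusion of late endosomes with lysosomes, measured -0.12, -0.10, 0.94 and 1.09 on the saline arrays and 0.46, 1.80, 0.74 and 0.72 on the colistin arrays. Saline arrays 3 and 4 lay among the colistin arrays, and the difference was 0.47 ± 0.45 (adjusted p = 0.541). Rab29, which acts at the trans-Golgi network and at lysosomes and recruits the kinase LRRK2, measured 3.15, 3.06, 2.48 and 1.83 after saline and 3.19, 3.45, 3.32 and 3.29 after colistin. The lowest colistin value was just above the highest saline value. The difference was 0.68 ± 0.36 (adjusted p = 0.288), and the SD was 0.61 in saline and 0.11 in colistin.

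Rab32, a Rab of lysosome-related organelles and mitochondria, had probes that differed in size. The brighter one, which stands for the gene, measured -0.99, -0.83, -1.56 and -1.23 on the saline arrays and -1.24, -0.54, 0.78 and 0.29 on the colistin arrays, a difference of 0.97 ± 0.48 (adjusted p = 0.259), with colistin array 1 inside the saline range. The dimmer one measured -7.14, -4.92, -6.86 and -7.12 on the saline arrays and -2.34, -3.97, -4.31 and -3.39 on the colistin arrays, a difference of 3.01 with separate groups. A single saline array (1 of 4) had it well above background, so that size is uncertain. With the probes averaged, Rab32 gave 1.99 and passed (adjusted p = 0.0436, limma), 1 Rab gene called beside 2.19% of all genes. The dimmer probe had met the condition on background through the colistin group alone, where it is high. That call is therefore no support for a difference. Rab38, a close relative of Rab32 that is disrupted in fawn-hooded rats, was well above background on 1 array of each group and was not tested. Rab9a, which returns mannose 6-phosphate receptors from late endosomes to the Golgi, gave 0.28 ± 0.62 (adjusted p = 0.804). It measured -1.52, -1.63, -1.05 and -2.75 after saline and -2.04, -0.20, -0.91 and -2.68 after colistin, and colistin array 4 was near the lowest saline array. The autophagy Rab24 gave 0.56 ± 0.40 and Rab7b 0.10 ± 0.40. Rab39a was well above background on no saline array and on 3 of 4 colistin arrays. It measured -5.68, -5.91, -6.92 and -7.17 after saline and -8.29, -3.39, -4.14 and -5.02 after colistin, where array 1 was below every saline array, so no fold is given (adjusted p = 0.485). With normexp its estimate was -0.35.

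Secretory. Of 13 genes of the secretory and exocytic routes 9 were tested, with a median of 0.48, 6 positive and 3 negative values and 0 that passed. Rab13, of traffic to tight junctions, gave 1.91 ± 0.73. It measured -2.72, 0.19, -2.46 and -2.78 on the saline arrays and -0.30, 0.70, -0.97 and 0.45 on the colistin arrays, and saline array 2 lay among the colistin arrays (adjusted p = 0.186). Rab10, of traffic to the plasma membrane including that of glucose transporters, measured -4.67, -3.14, -1.5010 and -5.71 after saline and -2.02, -2.77, -2.17 and -2.47 after colistin. Its saline arrays lay on both sides of the colistin arrays, which were tight with an SD of 0.33 against 1.84. The difference was 1.40 ± 0.84 (adjusted p = 0.338). Saline array 4, the lowest, was not well above background, so that size is uncertain. The estimate was -0.04 without saline arrays 1 and 4. Rab8a, which carries cargo from the Golgi to the surface and the cilium, measured 1.23, 2.58, 1.56 and 1.89 after saline and 1.35, 1.67, 1.64 and 1.61 after colistin, a difference of -0.25 ± 0.35 with an interval of -1.06 to 0.56. The colistin arrays sat within the saline range.

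Among the Rabs of regulated exocytosis, Rab3d measured -5.80, -6.57, -2.34 and -0.35 on the saline arrays and -2.67, -2.19, -1.98 and -3.16 on the colistin arrays. The saline values ran from below to above all colistin values, with 2 of 4 saline arrays well above background, and the difference was 1.27 ± 1.30 (adjusted p = 0.575). Rab27b, of secretory granules and exosomes, measured -3.74, -5.12, -6.64 and -4.23 after saline and -5.53, -4.82, -5.11 and -2.36 after colistin, with colistin array 4 above all others (difference 0.48 ± 0.86, adjusted p = 0.757). In saline it too was above background on 2 of 4 arrays. Rab27a was well above background on saline array 3 and colistin arrays 2 and 3, and Rab3a on saline array 3 and colistin array 4. Rab40b, of metalloproteinase secretion, gave -1.71 ± 1.03, with colistin array 1 not well above background (adjusted p = 0.341). Rab8b, a close relative of Rab8a, gave -0.59 ± 1.19, Rab26, of secretory granules, gave 1.51 ± 1.31 with 2 of 4 saline arrays well above background, and Rab40c gave 0.27 ± 0.37. The groups overlapped in each.

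Endoplasmic reticulum and Golgi. The 13 genes of this group, all tested, had a median of 0.06, with 8 positive and 5 negative values and 0 that passed. Rab1a, of transport from the endoplasmic reticulum to the Golgi, measured 4.48, 5.24, 5.43 and 6.26 on the saline arrays and 5.19, 5.50, 5.62 and 5.34 on the colistin arrays. The colistin arrays lay inside the saline range, and the difference of 0.06 ± 0.40 had an interval of -0.87 to 0.99. Rab1b gave 0.05 ± 0.38 with an interval of -0.81 to 0.91, and its 4 probes ranged from -0.45 to 0.55. Rab6a, of transport within and back from the Golgi, gave 1.37 ± 0.79 from 1.39, -1.89, -0.35 and -0.78 on the saline arrays and 2.56, 0.47, 0.09 and 0.73 on the colistin arrays. Saline array 1 lay among the colistin arrays (adjusted p = 0.321), and a second probe gave 1.88. Rab18, of lipid droplets and the endoplasmic reticulum, measured 1.4955, 1.21, 1.37 and 2.67 after saline and 1.12, 0.55, 1.55 and 1.80 after colistin, overlapping groups with a difference of -0.43 ± 0.44 (adjusted p = 0.578). Of the other Golgi genes with overlapping groups, Rab2a and Rab2b gave 0.51 ± 0.54 and 1.35 ± 1.39. Rab2b was low on saline array 4 alone, at -7.02, where it was not well above background. Rab30 gave 1.12 ± 0.86 with 1 of 4 saline arrays well above background. Rab6b, Rab33a, Rab33b and Rab36 had negative estimates of -0.53 ± 0.36, -0.69 ± 0.30, -0.63 ± 0.71 and -1.06 ± 0.72. Of these, Rab33a had the smallest SE, and it ran from -4.58 to -3.71 on the saline arrays and from -4.93 to -4.48 on the colistin arrays (adjusted p = 0.221).

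Rab43 and Rab19 act at the Golgi and had separate groups. Rab43 measured -2.95, -3.67, -3.75 and -6.07 on the saline arrays and -2.18, -2.81, -2.77 and -2.06 on the colistin arrays, and saline array 4, the lowest, was not well above background. The difference was 1.65 ± 0.65 (95% interval 0.15 to 3.15, adjusted p = 0.191). It was 0.9995 without saline array 4 and 0.10 with normexp (adjusted p = 0.681). Rab19, described because its values stood out, was well above background on 4 of 4 colistin arrays and on 0 of 4 saline arrays. It measured -7.19, -6.66, -7.10 and -5.99 on the saline arrays and -1.36, -5.87, -1.53 and -2.84 on the colistin arrays, where array 2 was close to the saline arrays and the other 3 were far above. Its mean was 11.1-fold higher after colistin when saline was taken at background. This fold leaves out the spread between arrays and is not a minimum (fitted adjusted p = 0.089, limma). The fitted 95% interval began at a log2 fold change of 1.64, and the difference within slide 1 was 0.72. With normexp the estimate was 0.41. Rab19 met the condition on background through the colistin group, where it is high, and dropping colistin array 2, its lowest there, gave an adjusted p of 0.0133 (limma), 1 Rab gene called beside 0.854% of all genes. That call is no support for a difference, and with any other array left out the adjusted p was 0.11 to 0.2.

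Cilium. Rab23, which in the mouse restrains Hedgehog signalling and acts at the primary cilium, was also described because its values stood out. It measured -4.72, -4.82, -1.24 and -5.26 on the saline arrays and -0.55, -0.95, -0.75 and -0.87 on the colistin arrays. The colistin arrays were tight, with an SD of 0.18, and saline array 3 came close to them while the other 3 were far below. In saline it was well above background on arrays 2 and 3 alone, so the size of the difference, 3.23 ± 0.84, is uncertain (adjusted p = 0.0957). A second probe gave 1.71 with overlapping groups. Rab23 too met the condition through the colistin group alone. Dropping saline array 3, its highest there, gave an adjusted p of 0.00328 (limma), 1 Rab gene called beside 1.58% of all genes. That call is no support for a difference, and with any other array left out the adjusted p was 0.142 to 0.211. Rab28, also of the cilium, gave -0.56 ± 0.38 (adjusted p = 0.395).

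**Figure D3:**
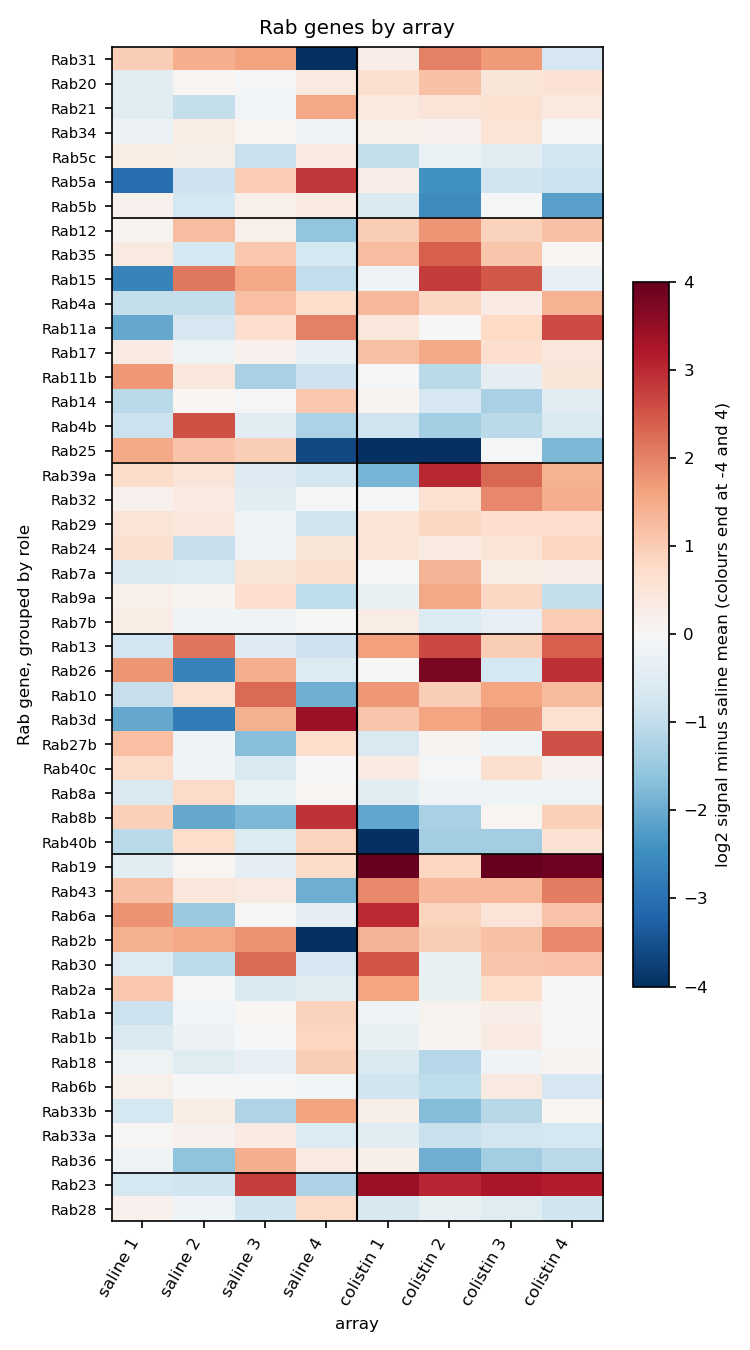
Log2 signal of the 48 tested Rab genes on the 8 arrays (columns), each as its difference from the gene's saline mean, with genes grouped by role (rows, divided by lines) and colours ending at -4 and 4. Many rows are one colour across all colistin arrays, including rows whose groups overlap. Rab23 is dark on every colistin array and Rab19 on all but colistin array 2. Saline array 4 departs from the other saline arrays in Rab31, Rab25 and Rab2b. In Rab3d and Rab8b it is the highest of widely spread saline arrays.

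Both groups were on each of the 3 slides, though with few arrays. Slide 1 held saline arrays 1 and 4 and colistin array 2, and slide 2 held saline array 2 and colistin array 3. Slide 3 held saline array 3 and colistin arrays 1 and 4. The median of the Rab genes within slides 1, 2 and 3 was 0.12, 0.39 and 0.05, against -0.37, -0.07 and -0.07 over all genes. Of the 48 genes 16 had the same sign on each slide (11 positive and 5 negative), or 33.3%, against 46.3% of all genes. With slide as a block 0 Rab genes passed. Another background correction gave other calls. With limma's normexp in place of the scanner software's own correction 5 Rab genes passed, Rab20 at 0.84 and Rab23 at 0.93 higher and Rab25 at -0.98, Rab40b at -0.69 and Rab33a at -0.60 lower. That is 10.4% of the 48, beside 27.3% of all genes (5.52% higher and 21.8% lower). The median of the Rab genes was then 0.02, against -0.34 over all genes, and 7 of 48 had an absolute log2 fold change over 1.

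**Figure D4:**
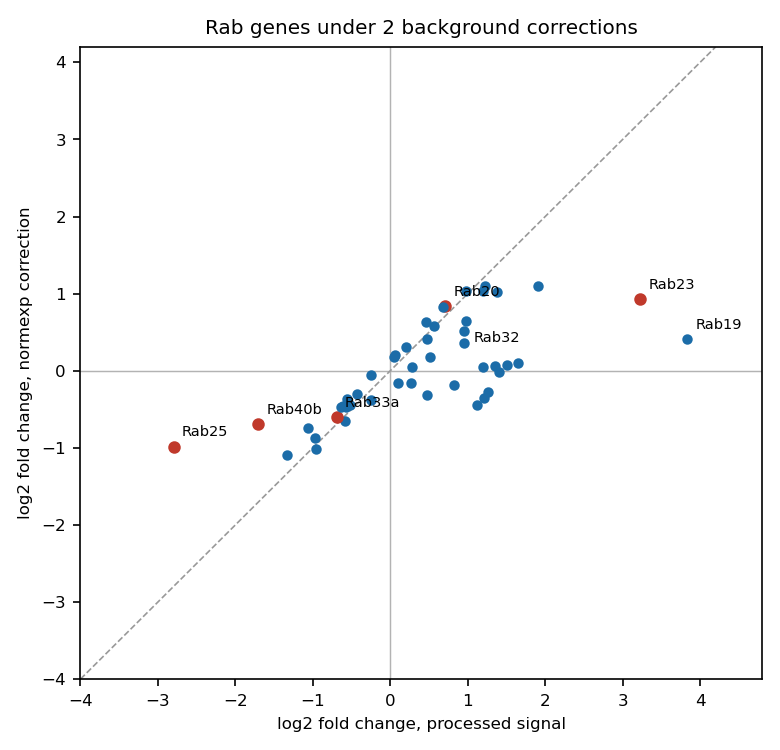
Log2 fold change of the 48 tested Rab genes from the processed signal (x axis) and after normexp correction (y axis), with equal values on the dashed line. The 5 genes that passed with normexp are red, and Rab23 and Rab19 lie far under the line, at fitted values of 3.23 against 0.93 and 3.83 against 0.41.

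Genes that regulate or serve the Rabs were taken from a list of 145, of which 96 were tested. Of these 4 passed, 3 higher and 1 lower, or 4.17%, beside 2.01% of all genes, and the median of the 96 was 0.12. Among the 3 higher is Usp6nl, which met the condition on background through the colistin group alone. Chml encodes an escort protein that presents new Rab proteins to the enzyme that adds their lipid anchor. It measured -3.04, -3.81, -3.35 and -3.18 on the saline arrays and -0.74, -0.90, -1.47 and -1.29 on the colistin arrays. Every colistin array was above every saline array, and Chml rose by 2.24 ± 0.32 (adjusted p = 0.0155). It lost its call without colistin array 1, 2 or 4 (adjusted p = 0.0527, 0.0518 and 0.0506), and with normexp the estimate was 0.86 (adjusted p = 0.0294). Plekhm1, an effector of Rab7 in fusion with lysosomes, measured -3.56, -3.05, -2.67 and -0.86 after saline and 1.53, 1.39, 1.48 and 0.35 after colistin. The groups were separate, and it rose by 3.72 ± 0.61 (adjusted p = 0.0248); it kept its call without saline array 4 (adjusted p = 0.00761) and lost it without each of the other 7 arrays (up to 0.0754). With normexp it was 2.43 (adjusted p = 0.0121).

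Usp6nl and Tbc1d5 encode GTPase-activating proteins of Rab5 and Rab7. Usp6nl measured -4.26, -5.50, -4.69 and -5.44 on the saline arrays and -1.77, -3.21, -1.36 and -1.56 on the colistin arrays. In saline 1 of 4 arrays had it well above background, so it was kept through the colistin group, where it is high. Its fitted difference of 2.9972 ± 0.51 passed (adjusted p = 0.0273, limma). The size is uncertain, and that call is no support for a difference. Usp6nl gave 0.49 with normexp (adjusted p = 0.159) and 2.70 with its probes averaged (adjusted p = 0.0673). Its call held with saline array 1 or colistin array 2 left out and was lost with any of the other 6 (adjusted p from 0.0534 to 0.0853). Tbc1d5 measured 1.69, 0.60, 1.97 and 1.63 after saline and -0.68, -0.34, -0.63 and -1.36 after colistin. All colistin arrays were below all saline arrays, and it fell by 2.23 ± 0.40 (adjusted p = 0.035). It lost its call without any array but saline array 2 (adjusted p from 0.0628 to 0.0948), and with its probes averaged it gave -0.92 (adjusted p = 0.123). By group, 1 of 8 genes of the membrane cycle, 0 of 27 exchange factors, 2 of 19 GTPase-activating proteins and 1 of 42 effectors passed. The share of all genes was 2.01%, and the 2 GTPase-activating proteins include Usp6nl, whose call is no support for a difference. With slide as a block 0 of the 96 passed.

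The tissue label was checked against markers. All 12 proximal tubule markers were well above background on all 8 arrays. Their summed level, in multiples of each array's 75th percentile, was 802 to 1199 on saline arrays and 290 to 531 on colistin arrays, and 10 of 12 had a negative log2 fold change, 2 of which passed. The summed level of 9 endothelial markers was 38.1 to 58.7 against 4.96 to 8.12, with 9 of 9 negative and 4 passing. For 6 intercalated cell markers it was 22.2 to 32.1 against 0.48 to 9.90, with 6 of 6 negative and 1 passing. These falls were not particular to those cells. In every cell type list checked but that of neurons (0.46) the median log2 fold change was negative. For 8 tubular injury markers it was 5.66 to 11.1 against 65.1 to 111, with 7 of 8 positive and 3 passing. Of 6 neuronal markers 3 were tested and 0 passed, and Syt1, Rbfox3 and Stmn2 were not tested. In tissue RNA, fewer cells of a type and less RNA per cell cannot be told apart, and the part of these shifts, or of the dimmer saline arrays, in the Rab values was not tested.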

How the data were processed

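Kidney RNA of 8 samples, 4 per group, was amplified to cDNA by the SPIA method and carried the single dye Cy3, per the labels' protocols, with 1 array for each sample. The authors deposited 1 table of spot intensity values per array, made with Agilent Feature Extraction 10.5 according to the submitters' processing notes. The processed intensity, per the file headers, is corrected for background and detrended within its array and not scaled between arrays. The authors' deposited table of log2 values is stated nowhere in scale or centring. Its differences between arrays had a lowest correlation of 0.9998 with those of the log2 processed signals, which gives its scale and direction. Every probe's median over the arrays was 0, and column medians ran from -0.229 to 0.232. It was used as an alternative.

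Of 42877 non-control spots, 257 to 461 on each array carried a non-uniformity or outlier flag and were dropped, and 0 were saturated. The log2 processed signals of a probe's spots were averaged (30367 probes) and the 75th percentile of the array, taken without controls, was subtracted. A probe counted as well above background where any spot of it that was not left out was. Accessions without versions were matched to RefSeq genes of the rat assembly GRCr8, which named 18643 probes. That assembly was used for names and promoters, since the array design is on an older build. Probes well above background on 3 or more arrays of a group were kept (23718), 7 named ones lacking a value on some array were dropped, and a gene was represented by its brightest probe. The files hold no probe sequence, so signal shared between near-identical Rab genes was not examined. Of 9 Rab genes with several kept probes, the probes of 3 (Rab1b, Rab5a and Rab33b) differed in sign. A further 4 symbols of this form in the reference were not analysed here.

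Groups were compared with lmFit and eBayes in limma 3.58.1 (R 4.3.3), two-sided, and a gene passed at a Benjamini-Hochberg adjusted p under 0.05, adjusted over every gene tested. The fit was tested on simulated data. Rab19, well above background on no saline array, is given as a fold against background. For it each saline array took its own value or, if higher, the lowest level that any probe well above background had there. Alternatives were normexp correction (offset 50, on the median spot and background signals, as the tables hold no mean signal), quantile and median scaling, the deposited table, other filters, averaged probes, a variance trend, slide and replicate number as blocks, and arrays left out. Genes named in full were those whose groups did not overlap and that were detected above background on 3 or more arrays per group (up to 8), regulators that passed, and 20 Rab genes named whatever their result; others are given as examples of their group. The members, role groups and lists were chosen with earlier results of these data known.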

Additional observations from a re-analysis of the deposited data

Results flagged for a closer look

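An array stood apart from the other 3 of its group, by Dixon's criterion at 95%, in 5 of 52 groups of 4 values checked (2 groups for each of 26 genes given in full), where chance gives about 5%. Rab5b was low on saline array 2, at 2.65, and Rab5c low on saline array 3, at 1.31. Rab25 was low on saline array 4, at -7.13, where it was not well above background. Rab23 was high on saline array 3, at -1.24, close to the colistin arrays. Plekhm1 was low on colistin array 4, at 0.35, which was still above every saline array. The other arrays of these groups are given with each gene above.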

How the results depend on the processing

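The count of Rab genes that passed was 0 in the main setting and was 5 with normexp, 1 with the probes of a gene averaged, and 0 to 1 with 1 array left out; under the other alternatives run it was 0. The median of the Rab genes, 0.48, was 0.016 with normexp and 0.15 over genes well above background on all 8 arrays, and 0.31 to 0.54 with 1 array left out. The count of regulators and effectors, 4, was 15 with normexp, 2 with averaged probes, 7 with a variance trend, 0 with slide as a block, 2 without saline arrays 1 and 4 together, and 0 to 3 with 1 array left out. Same-numbered samples were not shown to be paired (correlations of their deviations from -0.020 to 0.013), and with replicate number as a block 0 Rab genes and 0 regulators passed. Over all genes, 250 passed, 3392 with normexp (685 higher, against 182 of 250), 405 with a trend, 40 with slide as a block, 5 with the replicate block, 143 without saline arrays 1 and 4, and 77 to 254 with 1 array left out. Of 512 values under an alternative of the 26 genes given in full, 457 kept their direction and side of the threshold and 12 turned sign, in 6 genes whose estimates did not pass. These were Rab10 (-0.015 with normexp, -0.039 without saline arrays 1 and 4), Rab3d (-0.27 with normexp), Rab27b (-0.32 with normexp, and -0.22 to 0.87 with 1 array left out), Rab9a (-0.11 without saline arrays 1 and 4, and -0.14 to 0.69), Rab1a (-0.23 to 0.36) and Rab8a (-0.44 to 0.0086). Among all 48 Rab genes 8 turned sign with normexp, the 3 above and Rab7b (-0.16), Rab30 (-0.44), Rab31 (-0.18), Rab39a (-0.35) and Rab40c (-0.16), while 13.8% of all genes did. Of the 22 Rab genes given in full, 13 moved by over 1.5 times with an array left out and 13 with normexp. The causes were not tested.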
